A study of Mus musculus with 6 samples.

Results

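Chemokines are small secreted proteins that draw leukocytes along a gradient, and they act on receptors of the seven-helix family that couple to inhibitory G proteins. They are sorted by the spacing of their first cysteines into CC, CXC and CX3C ligands. Atypical receptors such as those of the Ackr genes bind chemokines without the usual G protein signal and take them up, which limits how far a ligand spreads. In muscle, chemokines come from macrophages, vessels, fibroblasts and fibers, and they guide the entry of monocytes and T cells after injury.

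The genes described here are the chemokines and chemokine receptors of the mouse array, chosen as those whose symbol starts with Ccl, Cxcl, Ccr, Cxcr, Ackr, Xcr or Cx3c followed by a digit, l or r, and which at least 1 probe set names alone. There were 52 such genes among 17097 genes named on the array, 33 ligands and 19 receptors, with 78 probe sets in all. Each gene is represented by its brightest probe set, that with the highest mean over 6 arrays. Gastrocnemius muscle came from male ICR mice that were 7 weeks old before acclimatization and were fed either the AIN-93G diet (control group, 3 arrays) or the same diet with 0.27% maslinic acid, a triterpene of olive peel (MA group, 3 arrays). After 1 week on the diets a 5 mm piece of both sciatic nerves was removed in all mice, so that both groups were denervated, and muscle was taken on day 14. No array of innervated muscle was analysed here, and no source used here ties the 3 arrays of a group to separate mice. The p-values therefore speak to array-to-array spread alone, which may be technical.

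Values are log2 RMA signals, and a difference is the MA group minus the control group, fitted with limma over 45037 probe sets. A gene is called where the Benjamini-Hochberg adjusted p over all probe sets was under 0.05, and a fold over 1.2 corresponds to 0.263 on the log2 scale. The background was set at 3.95, the highest value of the controls for nonspecific binding, and a gene with a mean at or under it in a group has only a bound there. Array medians lay between 4.27 and 4.28. Across probe sets, r was 0.9992 to 0.9997 within a group and 0.9934 to 0.9937 between groups. Beyond the mouse genes, the 18 probe sets for hybridization controls, which are bacterial and phage transcripts added to every sample, were all higher in the MA group, by 0.04 to 0.35 with a median of 0.17. The markers of muscle fibers were as the label of the tissue says, with 8 of 8 measured above background.

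A few ligands fell steeply in the MA group, while most of the other genes of the family moved little. Of the 52 genes, 15 fell and 13 rose, which is 53.8% beside 47.8% of all named genes called in either direction. The share that fell was 28.8% beside 23.0% of all named genes, and the share that rose was 25% beside 24.7%. With a fold over 1.2 as well, 9 genes were lower (background 6.87%) and 2 were higher (background 5.92%). With a fitted fold over 2, 5 genes were lower, 9.62% of the family beside 0.521% of all named genes, and 0 were higher beside 0.357%. Of these 5, 4 had both groups above background. The other, Cxcl10, has a bound of at least 1.91-fold only, and Cxcl12 differed by -0.25 when its probe sets were averaged. The median difference over the family was -0.01, and over all named genes it was 0.0063. MA and control values were fully separated at 34 of the 52 genes, 65.4% beside 58.6% of all named genes.

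**Figure D1:**
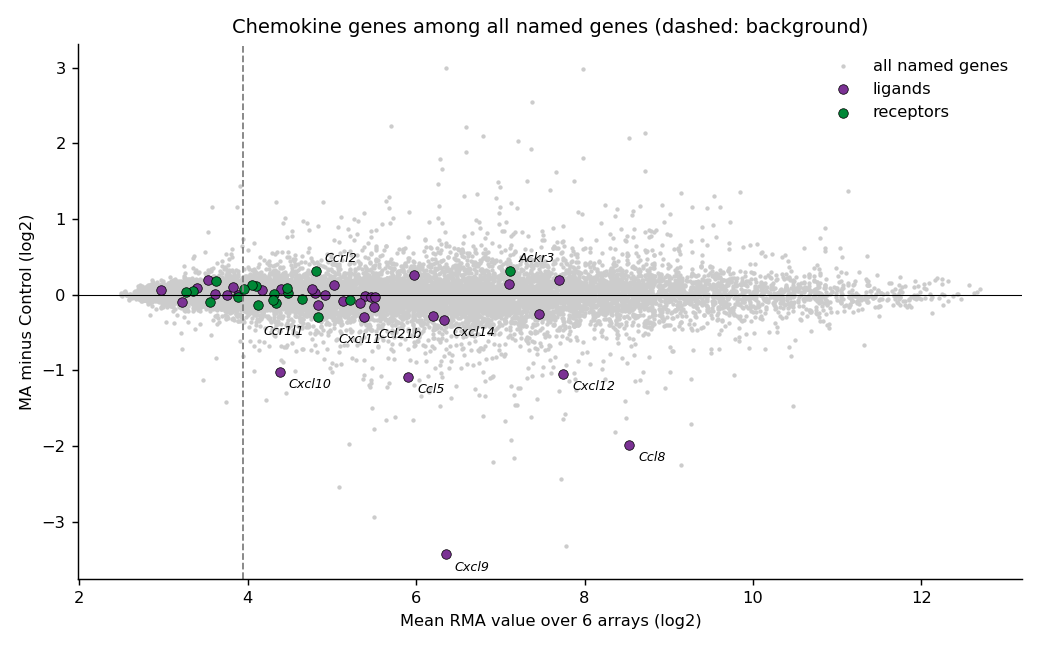
MA minus control (log2, vertical axis) against the mean value over 6 arrays (log2, horizontal axis) for all 17097 named genes in grey, with chemokine ligands in purple, receptors in green, and a dashed line at the background of 3.95. Cxcl9 at -3.43 and Ccl8 at -1.98 lie far below the cloud, while all receptors lie between -0.30 and 0.31.

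The ligands that bind CXCR3, a receptor of activated T cells and NK cells, fell together. Cxcl9, which interferon gamma induces, had values of 8.07, 8.07 and 8.06 on the control arrays and 4.71, 4.63 and 4.56 on the MA arrays. The groups were far apart and every MA array still lay above background. The difference was -3.43 (standard error 0.035, limma adjusted p = 4.19e-10), a 10.8-fold fall and the lowest difference of all 17097 named genes. Cxcl10, a second ligand of the same receptor, had 4.79, 4.97 and 4.90 on the control arrays and 3.87, 3.90 and 3.84 on the MA arrays. All 3 MA arrays were under background, which makes Cxcl10 at least 1.91-fold lower (fitted difference -1.02, limma adjusted p = 6.77e-07). Cxcl11, the remaining ligand of CXCR3, had 5.60, 5.53 and 5.47 in the control group and 5.24, 5.24 and 5.22 in the MA group. It fell by 0.30 (standard error 0.033), and by 0.21 when its probe sets were averaged. The receptor gene Cxcr3 itself had a mean of 4.19 ± 0.087 (SD, n = 3) in the control group and 4.05 ± 0.028 (SD, n = 3) in the MA group, close to background, and fell by 0.14 (limma adjusted p = 0.0258). All 4 genes of this ligand and receptor group were thus called lower, 3 of them past 1.2-fold.

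Ccl8 and Ccl5 were the CC ligands with the largest falls. Ccl8, a member of the monocyte chemoattractant family, had 9.55, 9.50 and 9.50 on the control arrays and 7.50, 7.53 and 7.57 on the MA arrays. The SD between arrays was 0.031 in the control group and 0.034 in the MA group (n = 3 each), and the difference was -1.98 (standard error 0.027, limma adjusted p = 1.58e-09), a 3.95-fold fall. Ccl5, a chemokine for T cells and monocytes, had 6.41, 6.52 and 6.43 in the control group and 5.43, 5.36 and 5.31 in the MA group. It was 2.12-fold lower (difference -1.09, standard error 0.039).

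The promoter windows of Cxcl9, Ccl8, Cxcl12 and Cxcl10 are shown because these are the genes of the family with a fitted fall over 2-fold that have a window. Each window runs from 250 bases before the RefSeq start site to 50 bases after it, in GRCm38.p6, and is written 5′ to 3′ on the strand of the gene. Capitals mark matches on either strand to TATAAA (the TATA box), GAAA, 2 bases of any kind and GAAA (the interferon-stimulated response element, ISRE), GGG, 3 bases of any kind and TTCC (an NF-κB site) or TTCNNNGAA (the gamma-activated sequence, GAS), and the matches marked do not overlap each other. Cxcl9 lies at chr5:92328030-92328329 on the minus strand, Ccl8 at chr11:82114935-82115234 on the plus strand, Cxcl12 at chr6:117168285-117168584 on the plus strand and Cxcl10 at chr5:92348840-92349139 on the minus strand.
Cxcl9: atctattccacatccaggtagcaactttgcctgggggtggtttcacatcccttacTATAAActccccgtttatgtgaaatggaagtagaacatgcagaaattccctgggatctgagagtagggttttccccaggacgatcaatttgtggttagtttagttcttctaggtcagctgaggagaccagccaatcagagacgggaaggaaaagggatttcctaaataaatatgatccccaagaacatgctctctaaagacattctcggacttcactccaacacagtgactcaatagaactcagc
Ccl8: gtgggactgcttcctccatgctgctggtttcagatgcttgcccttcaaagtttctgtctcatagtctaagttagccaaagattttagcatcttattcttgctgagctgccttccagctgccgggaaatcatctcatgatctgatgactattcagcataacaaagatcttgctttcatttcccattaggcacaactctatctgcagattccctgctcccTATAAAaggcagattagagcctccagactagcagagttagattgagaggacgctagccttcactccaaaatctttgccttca
Cxcl12: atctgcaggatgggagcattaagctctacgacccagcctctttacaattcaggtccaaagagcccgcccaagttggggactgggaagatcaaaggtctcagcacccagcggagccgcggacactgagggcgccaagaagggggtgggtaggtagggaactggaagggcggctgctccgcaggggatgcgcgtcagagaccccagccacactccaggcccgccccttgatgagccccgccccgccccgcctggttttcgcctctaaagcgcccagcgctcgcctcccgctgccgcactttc
Cxcl10: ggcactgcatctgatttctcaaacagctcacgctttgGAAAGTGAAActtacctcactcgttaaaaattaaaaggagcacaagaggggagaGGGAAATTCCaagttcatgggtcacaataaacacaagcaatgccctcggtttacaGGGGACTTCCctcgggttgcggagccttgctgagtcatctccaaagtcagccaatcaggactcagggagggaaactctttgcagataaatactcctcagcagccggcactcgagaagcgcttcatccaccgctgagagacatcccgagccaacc
The window of Cxcl10 held an ISRE match, GAAAGTGAAA, and 2 NF-κB matches, GGGAAATTCC and GGGGACTTCC. The windows of Cxcl9 and Ccl8 held a match to the TATA letters each and none to the other 3 motifs. These matches differed in place, at -195 from the start site in Cxcl9 and at -32 in Ccl8. The window of Cxcl12 held no match to any motif. No match says only that these letters are not in the window. Over the 40 genes of the family with a window, the ISRE letters were found in 3 (7.5%, beside 3.49% of 27025 promoters), the NF-κB letters in 7 (17.5%, beside 5.52%), the GAS letters in 4 (10%, beside 8.47%) and the TATA letters in 11 (27.5%, beside 14.2%). Of 10 genes with a window that fell, 2 held the ISRE letters and 1 the NF-κB letters, and of 12 that rose, 1 and 2 did. A match is a description of the sequence and not evidence of binding.

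**Figure D2:**
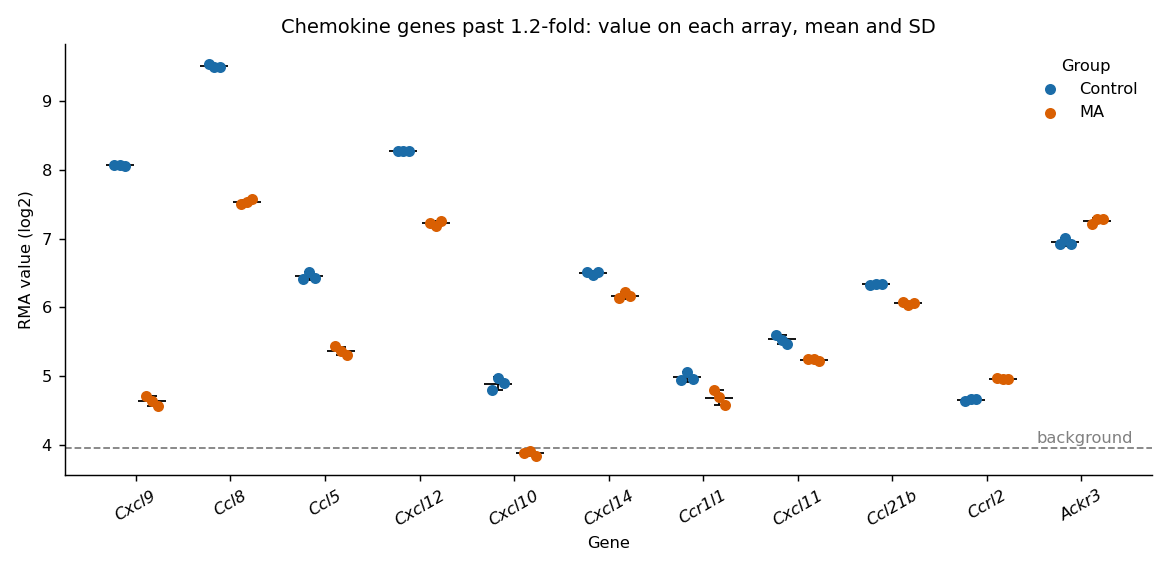
Value on each array (log2 RMA) of the 11 chemokine and receptor genes with an adjusted p under 0.05, a fold over 1.2 and a mean above background in at least 1 group, with control arrays in blue, MA arrays in orange, and a black bar at the mean with the SD (n = 3). The groups do not overlap at any of the 11 genes, which their choice by p and fold favours. Such separation was also seen at 58.6% of all named genes. Cxcl10 is the only one of the 11 whose MA arrays lie under the dashed background line.

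The other ligands of the monocyte chemoattractant family were not called lower. Ccl2, Ccl7 and Ccl12, which act on the receptor CCR2 of inflammatory monocytes, were not above background in either group. Their differences were 0.20, 0.01 and 0.10. Ccl2 and Ccl12 were called higher under background (limma adjusted p = 9.48e-04 and 0.04), and Ccl7 was not called. Ccr2, the gene of that receptor, differed by -0.07 at its brightest probe set (control 5.25 ± 0.058, MA 5.18 ± 0.025, SD, n = 3, limma adjusted p = 0.121). The other 3 probe sets of Ccr2 rose, by 0.19, 0.33 and 0.41, the last not above background, so that no single direction can be given for this gene. Ccl6 and Ccl9, mouse ligands of CCR1 made by myeloid cells, moved in opposite directions. Ccl6 fell by 0.26, from 7.59 ± 0.029 to 7.33 ± 0.020 (SD, n = 3), while Ccl9 rose by 0.14, from 7.03 ± 0.044 to 7.16 ± 0.011 (SD, n = 3). Ccl4, a chemokine for monocytes and T cells, fell by 0.12, and Ccl3, a related ligand, was not above background. Ccr1, a receptor of monocytes and neutrophils, rose by 0.12 from 3.99 to 4.11, near background. Ccr1l1, a gene similar to Ccr1, had 4.94, 5.06 and 4.95 in the control group and 4.79, 4.69 and 4.57 in the MA group. It was the only receptor past 1.2-fold downward (difference -0.30, standard error 0.056, limma adjusted p = 0.00306).

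Many of these ligands lie side by side in the genome, and neighbours differed in size and direction. In the RefSeq table Ccl2, Ccl7, Ccl11, Ccl12, Ccl8 and Ccl1 follow each other with no other protein-coding gene between them. Their differences were 0.20, 0.01, -0.17, 0.10, -1.98 and -0.01 in that order, so that Ccl8 stood apart from the genes beside it, of which Ccl2, Ccl7, Ccl12 and Ccl1 were not above background. Ccl5, Ccl9, Ccl6, Ccl3 and Ccl4 form another such run, with -1.09, 0.14, -0.26, -0.01 and -0.12. The run of receptors Cxcr6, Xcr1, Ccr1, Ccr1l1, Ccr3 and Ccr2 had -0.07, -0.06, 0.12, -0.30, 0.05 and -0.07.

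Cxcl12, which retains stem cells, endothelial cells and lymphocytes in tissue, fell at its brightest probe set and rose at its other probe sets. The brightest had 8.28, 8.27 and 8.27 on the control arrays and 7.23, 7.19 and 7.26 on the MA arrays, a 2.07-fold fall (difference -1.05, standard error 0.024, limma adjusted p = 1.97e-08). The others rose by 0.16 (standard error 0.027, limma adjusted p = 0.00151) and 0.14 (standard error 0.042, limma adjusted p = 0.0281), both above background, and the mean of the probe sets differed by -0.25. Which transcripts each probe set reads was not tested. Ackr3, the atypical receptor that takes up CXCL12, had 6.92, 7.01 and 6.92 in the control group and 7.22, 7.28 and 7.28 in the MA group. It rose by 0.31 (standard error 0.032, limma adjusted p = 1.09e-04). Its single probe set is of the type that can read related transcripts. Cxcl14, a ligand of epithelium and fibroblasts, also had probe sets called in opposite directions. Its brightest probe set had 6.52, 6.47 and 6.51 in the control group and 6.13, 6.22 and 6.16 in the MA group, a fall by 0.33, while its other probe set rose by 0.15 (limma adjusted p = 0.0012), with -0.09 for the mean of both.

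**Figure D3:**
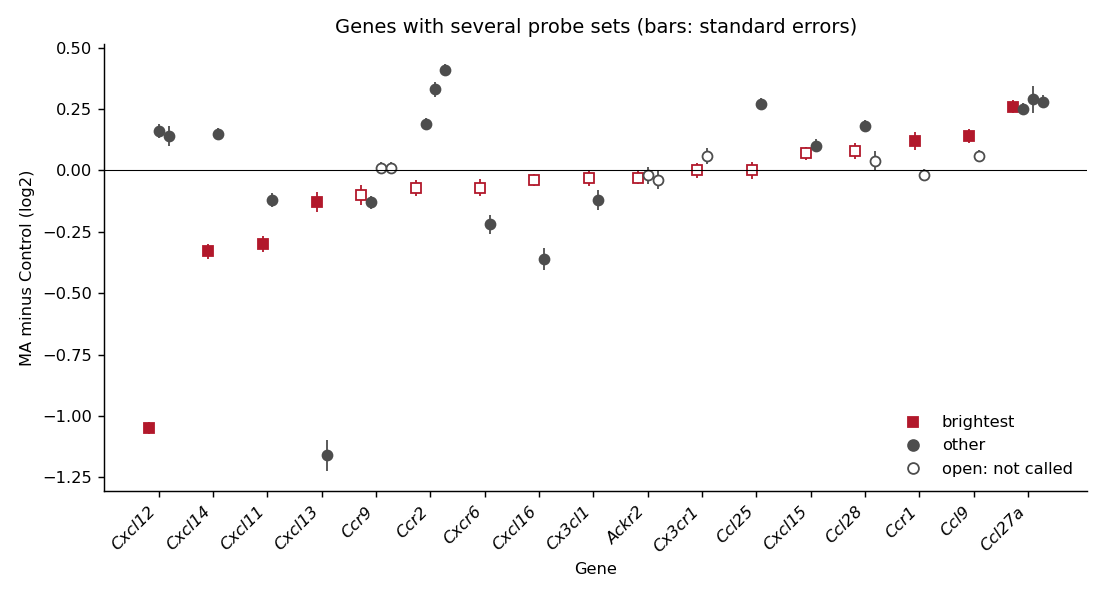
MA minus control (log2) with its standard error at every probe set of the 17 genes that have several, with red squares for the brightest and dark circles for the others, filled where the adjusted p was under 0.05. The probe sets of Ccl27a lie together between 0.25 and 0.29, while those of Cxcl12 lie at -1.05, 0.14 and 0.16.

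Of the 17 genes with several probe sets, 2 had another probe set called against the brightest, Cxcl12 and Cxcl14, and 8 had a brightest probe set that was not called beside another that was. Cxcl13, which draws B cells into follicles, fell by 0.13 at its brightest probe set (limma adjusted p = 0.0334). The other probe set of Cxcl13 fell from 5.05 ± 0.14 to 3.89 ± 0.022 (SD, n = 3), under background, which gives a fall of at least 2.15-fold. Cxcl16, a transmembrane chemokine that also takes up oxidized lipoprotein, differed by -0.04 at the brightest probe set and fell by 0.36 at the other (limma adjusted p = 3.49e-04). Its receptor gene Cxcr6 differed by -0.07 at the brightest probe set (limma adjusted p = 0.114). The other probe set of Cxcr6, not above background in either group, was called lower, with -0.22 (limma adjusted p = 0.00225). Ccl25, a ligand of thymus and gut, differed by 0.00 at the brightest probe set and rose by 0.27 at the other. All probe sets of Ccl27a, a skin chemokine, rose, by 0.26, 0.25, 0.29 and 0.28.

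The ligands that organize lymphoid tissue went in opposite directions. Ccl21b had 6.33, 6.34 and 6.34 in the control group and 6.07, 6.04 and 6.06 in the MA group. It belongs to a set of near-identical Ccl21 copies made by lymphatic vessels and lymphoid stroma, and its probe set can read other copies, so that the value may not be that of Ccl21b alone. It fell by 0.28 (standard error 0.021, limma adjusted p = 1.62e-05). Ccl19, a ligand for dendritic cells and naive T cells, rose by 0.19, from 7.60 ± 0.0045 to 7.79 ± 0.0085 (SD, n = 3, limma adjusted p = 1.36e-04), which is under 1.2-fold. Ccl11 and Ccl24, eotaxins that draw eosinophils, fell by 0.17 and 0.09, while Ccl17, a ligand for helper T cells, rose by 0.13. Ccl22, which acts on the same cells as Ccl17, differed by 0.02, and their receptor gene Ccr4 by 0.07 (limma adjusted p = 0.0543), at 3.92 in the control group, under background.

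The 2 genes of the family that rose past 1.2-fold, Ccrl2 and Ackr3, are atypical receptors, and signaling receptors moved little. Ccrl2, which binds chemerin and presents it to leukocytes, had 4.63, 4.67 and 4.66 in the control group and 4.97, 4.95 and 4.95 in the MA group. It rose by 0.31 (standard error 0.022, limma adjusted p = 1.36e-05). Ackr4, which takes up CCL19 and CCL21, rose by 0.12, from 4.04 ± 0.019 to 4.16 ± 0.071 (SD, n = 3), and Ackr2, which takes up inflammatory CC ligands, was not above background. Of 4 atypical receptors 3 rose and 1 was not called. Of 15 signaling receptors, 2 fell, 3 rose and 10 were not called, with differences from -0.30 to 0.18. Beside these counts, 23.0% of all named genes fell and 24.7% rose, and 4 atypical receptors are too few to set against such shares. Among those that rose, Cxcr2, a receptor of neutrophils, differed by 0.09 and Ccr8 by 0.18, the latter not above background. Of the 13 rises in the family, 6 were over the hybridization controls' median of 0.17 and 7 were at or under it, and 4 were of genes not above background. The largest rise, 0.31, was still under the highest difference of those controls, 0.35. The part of that shift of the controls in these rises was not tested.

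**Figure D4:**
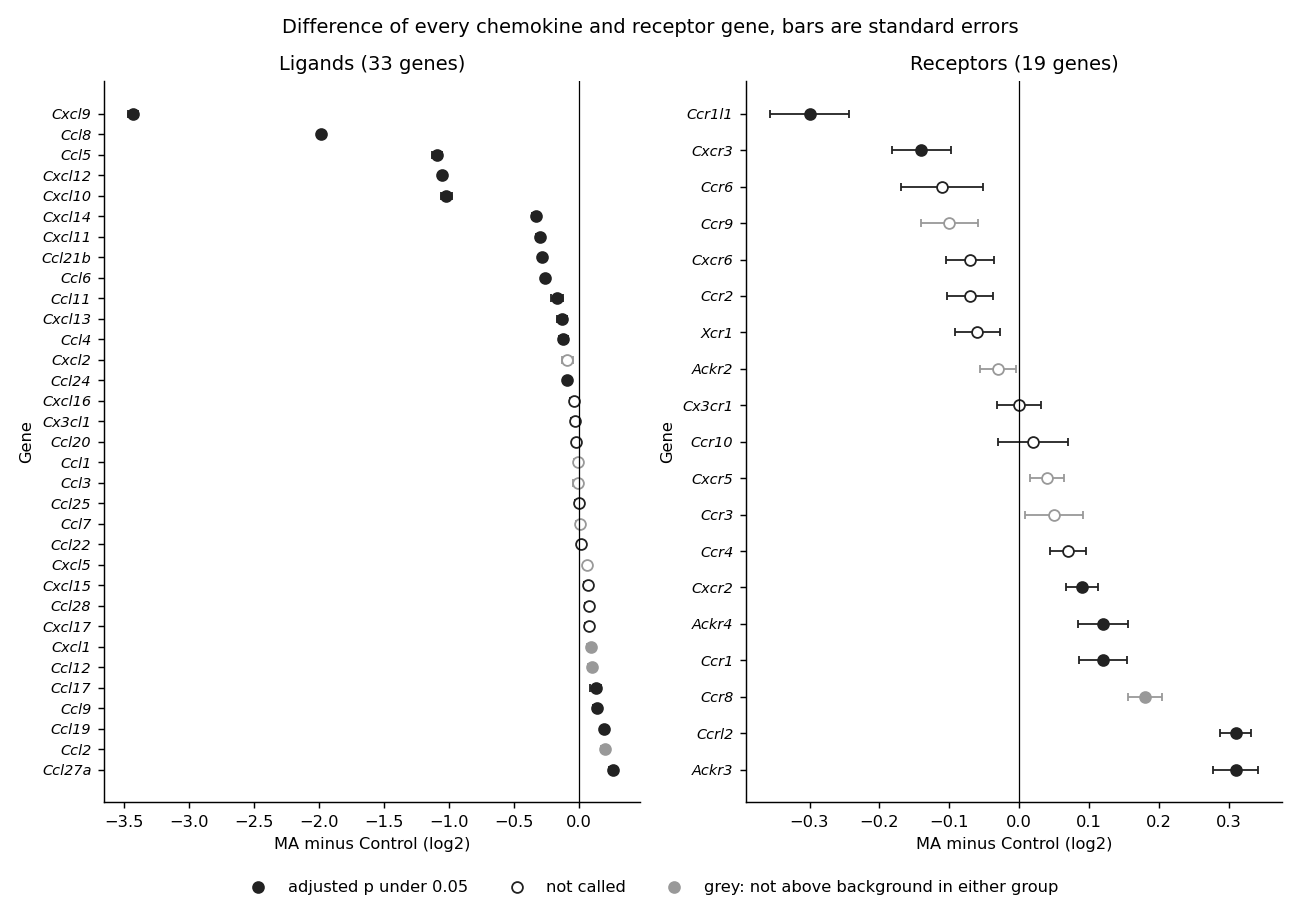
MA minus control (log2) with its standard error for the 33 ligands (left) and the 19 receptors (right, on a finer scale), filled where the adjusted p was under 0.05 and grey where the gene was not above background in either group. Among ligands 13 fell and 7 rose, and among receptors 2 fell and 6 rose, where 23.0% of all named genes fell and 24.7% rose.

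The remaining genes were not called at their brightest probe set or lay at background. Of the 24 genes not called, all had differences between -0.11 and 0.08. Cx3cl1, the membrane-bound fractalkine of endothelium, differed by -0.03 (control 5.49 ± 0.014, MA 5.46 ± 0.064, SD, n = 3), and its receptor gene Cx3cr1, of resident monocytes and macrophages, by 0.00 (4.31 in both groups). The other probe set of Cx3cl1 fell by 0.12 (limma adjusted p = 0.0426). The ligands Ccl20, Ccl28, Cxcl15 and Cxcl17, best known from epithelium, differed by -0.02, 0.08, 0.07 and 0.08. Another probe set above background rose by 0.18 for Ccl28 (limma adjusted p = 4.83e-04) and by 0.10 for Cxcl15 (limma adjusted p = 0.0135). The receptor genes Ccr6, Ccr10 and Xcr1, of lymphocytes and dendritic cells, differed by -0.11, 0.02 and -0.06. A limit of the arrays is that 13 of the 52 genes were not above background in either group, namely Ackr2, Ccl1, Ccl2, Ccl3, Ccl7, Ccl12, Ccr3, Ccr8, Ccr9, Cxcl1, Cxcl2, Cxcl5 and Cxcr5. Their array values ran from 2.93 to 3.93, and 4 of them were called higher, with differences up to 0.20. Cxcl1, Cxcl2 and Cxcl5, which draw neutrophils, are among them. Cxcl1 was called higher, by 0.09 under background, and Cxcl2 and Cxcl5 were not called. The share above background was 75% for the family and 72.1% for all named genes.

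Markers of macrophages mostly fell, as did several ligands. For comparison with the counts of this paragraph, 23.0% of all named genes fell and 24.7% rose. Of 11 macrophage markers, 9 fell, 0 rose and 2 were not called, with a median of -0.62. The summed linear signal of these markers was 3000 to 3070 on the control arrays and 1790 to 1830 on the MA arrays. C1qb, a complement subunit made by macrophages, differed by -1.46 and the scavenger receptor gene Cd163 by -1.34. Adgre1, which encodes F4/80, differed by -1.14 and Lyz2, the lysozyme of myeloid cells, by -0.69. Cd68, above background in both groups, differed by 0.12 and was not called (limma adjusted p = 0.198), and Itgam was not above background. Of 11 markers of T and NK cells, 6 fell and 1 rose, with sums of 209 to 212 on the control arrays and 195 to 200 on the MA arrays. Nkg7, a granule protein of killer cells, fell by 0.54 and Cd3g differed by -0.46 under background, while Cd3e rose by 0.14 and Cd2, Cd8b1 and Ncr1 were not above background. Of 5 neutrophil markers, S100a8 rose by 0.65 and S100a9, not above background, fell by 0.11. Csf3r and Elane were not called, nor was Mpo, which was not above background. The sums were 126 to 131 on the control arrays and 165 to 167 on the MA arrays. S100a8 was the brightest marker in these sums and the only one called higher. Of 4 dendritic cell markers 1 fell, and of 4 B cell markers 1 rose. The sums of the former were 124 to 129 on the control arrays and 114 to 120 on the MA arrays, and of the latter 75.6 to 76.3 and 76.0 to 77.2. The B cell marker Cd79b was not called and was not above background. Of 7 markers of blood endothelium 6 fell, with a median of -0.16 and sums of 232 to 244 and 206 to 211. Tie1, among those that fell, was not above background in either group. Of 4 lymphatic markers 2 rose and 1, Lyve1, fell, with sums of 110 to 113 and 124 to 129. Of 5 fibroblast markers 2 rose and 1 fell, with sums of 3130 to 3150 and 3210 to 3240. Of 3 Schwann cell markers, 2 fell and 1 rose, with sums of 128 to 132 and 103 to 105. Mbp, the brightest of them, fell by 0.49, S100b fell under background, and Sox10 rose by 0.14. Of 4 genes that rise with denervation, 2 fell and 1 rose, with sums of 4140 to 4180 in the control group and 3950 on all MA arrays. Of 8 muscle fiber markers 4 rose and 0 fell, with sums of 40000 to 40200 on the control arrays and 42100 to 42200 on the MA arrays. In bulk muscle, fewer cells of a type and less RNA per cell cannot be told apart. The part of these cell types in the falls of the ligands was not tested.

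Genes upstream of the inflammatory ligands were lower in several cases. The list held 15 measured genes that carry interferon gamma, TNF, interleukin-1 and Toll-like receptor signals to chemokine genes. Of these, 8 fell, 2 rose and 5 were not called, with a median of -0.10. Over all named genes, 23.0% fell and 24.7% rose. Irf1 and Irf8, transcription factors that interferon gamma induces, differed by -0.80 and -0.84, and Ifngr1, a chain of the interferon gamma receptor, by -0.59. Jak1, a kinase bound to that receptor, rose by 0.11. Rela, the NF-κB subunit p65, fell by 0.34, while Il1r1, the interleukin-1 receptor, rose by 0.34. Ifng itself, among the genes called lower (difference -0.14, limma adjusted p = 0.00787), was not above background in either group. The cytokine genes Tnf and Il1b, above background in both groups, differed by 0.05 and -0.10 and were not called. Of 28 measured genes downstream of chemokine receptors, 14 fell, 2 rose and 12 were not called, with a median of -0.094. The shares over all named genes are again 23.0% for falls and 24.7% for rises. Rac2, the Rac GTPase of leukocytes, fell by 0.41, and Rac1, its widely expressed relative, differed by -0.05 and was not called. Gnai2, an inhibitory G protein subunit, fell by 0.24, while the related Gnai1 rose by 0.43.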

How the data were processed

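RNA of gastrocnemius muscle was labelled with a 3' IVT kit and hybridized to Affymetrix mouse array strips, which carry a mouse genome design according to the methods, although a human array stands in the design text. The probe set names and their annotation are those of mouse. The deposited log2 values are RMA signals that the authors made in Expression Console with 1 value per probe set, and they were not normalized further here. Groups were then compared by the authors in Transcriptome Analysis Console, whose results were not used here.

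The fit was lmFit and eBayes in limma 3.58.1 (R 4.3.3), with no covariate, over 45037 probe sets, without the 104 array controls. Of these, 28898 named 1 gene, 551 several and 15588 none in the platform annotation. The background is the highest array value of 22 nonspecific-binding controls. The control made only of G and C, at 7.24, was left out. Where a group mean was at or under background, a fold was bounded by taking its arrays at no less than background. The steps were tested on simulated data. Promoter windows came from RefSeq (GRCm38.p6), where 40 of the 52 genes matched by symbol, with the first window taken where a gene had several. The motifs were chosen after the data were seen.

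Genes past 1.2-fold and above background were given array by array, other genes above background by group means or differences, and the rest once. Of the lists of related genes, members with large differences or high signal were named. Beyond at most 4 a list, markers that were not above background, Cd68, Cd3e, Lyve1, Rela, Il1r1, Ifng, Tnf, Il1b, Cmklr1 and Fpr2 were named after their values were seen. The genes and lists were chosen with earlier results of these data known. Precision is limited by the number of arrays. The smallest two-sided p of an exact permutation test at this size is 0.1. The alternatives were the methods' one-way test, eBayes with a trend or robust moderation, quantile normalization again, median centring, array weights, averaging the probe sets of a gene, a replicate block, leaving out dim probe sets, asking for 1.2-fold as well, and dropping each array in turn.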

Additional observations from a re-analysis of the deposited data

How the results depend on the processing

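The 11 genes given array by array kept their direction and stayed past the threshold on p in all 165 values under the alternatives that apply to them. They did not all stay past 1.2-fold. Averaging probe sets moved Cxcl12 from -1.05 to -0.25, Cxcl14 from -0.33 to -0.09 and Cxcl11 from -0.30 to -0.21, quantile normalization moved Ccl21b from -0.28 to -0.25, and Ccr1l1 was -0.24 without the third MA array. The number of chemokine and receptor genes called, 28, was 11 (9 lower and 2 higher) with the methods' one-way test and a fold over 1.2, and also 11 (9 lower and 2 higher) with that fold beside the adjusted p. Under the same alternatives the array had 4633 probe sets called in place of 19331, and the lists of related genes 39 in place of 79. Under leaving out each array in turn, 22 to 27 genes of the family were called, 11 to 17 lower and 9 to 11 higher, with a median difference of -0.021 to -0.006, and the median of the family lay between -0.038 and -0.001 under the 15 alternatives for which it was computed. The replicate numbers of the titles were not used as pairs in the main fit. Of 3 pairs with the same number, 2 had a correlation of deviations over 0.1 (0.19, 0.042 and 0.14). Of the 6 arrays, 4 correlated best with the other group's array of the same number. Whether the numbers pair the arrays is not settled by these values. With the replicate block 30 genes were called, 17 lower and 13 higher. Calls of genes at or under background, and directions of genes whose probe sets disagree, are the least certain.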

Other observations

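Genes that act like chemokines but lie outside the naming rule had more falls than rises after maslinic acid. There were 10 falls and 1 rise among 16 measured, and 5 were not called, with a median of -0.14. Over all named genes, 23.0% fell and 24.7% rose. Cd74, the class II invariant chain that also serves as a receptor of the cytokine MIF, differed by -1.40, and Mif itself by -0.18. Rarres2, which encodes chemerin, fell by 0.48, while Ccrl2, which binds it, rose by 0.31 and Cmklr1, its signaling receptor, fell by 0.12. Fpr2, a formyl peptide receptor of phagocytes, fell by 0.44.

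A pair of probe sets that name both Ackr4 and Acad11 stayed outside the family because they name several genes. They differed by -0.14 (standard error 0.060, limma adjusted p = 0.0905) and -0.14 (standard error 0.064, limma adjusted p = 0.125), where the probe set that names Ackr4 alone rose by 0.12.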
